A study of Mus musculus with 6 samples.

Results

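The nuclear genome encodes most subunits of the mitochondrial respiratory chain and of the ATP synthase, and the transcripts of these genes were followed in KPC1199 cells, a mouse line whose cell type is labelled as pancreatic tumour. Genes were taken by name: symbols of the Nduf subunit series (complex I), those beginning with Uqcr (complex III), Cox4 to Cox8 (complex IV) and Atp5 (ATP synthase), without rows whose name contains -ps. This gave 88 of the 57508 rows of the deposited table, 43 of complex I by name, 8 of complex III, 19 of complex IV and 18 of the ATP synthase. A further 15 rows with such names and -ps, used for pseudogenes, were left out, 9 of which were at 0 in every library. This did not remove every pseudogene. Among the 88, GENCODE M21 annotates Ndufb4c, Ndufa11b, Ndufs6b and Cox6c2 as processed pseudogenes, and Ndufb1 as a bidirectional promoter lncRNA. Of these, Ndufb4c and Ndufb1 had enough reads to be tested and are counted in complex I.

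RNA sequencing was done on 6 libraries, 3 with the genotype WT and 3 with the genotype ACSL5 knockdown. Titles give KO where the genotype says knockdown, and the library names read siACSL5_CY3 for WT and siACSL5_2260 for knockdown, so that both names carry siACSL5. The labels explain neither ending, and they give no time of treatment and no separate cultures, so p-values here rest on library-to-library spread that may be technical. The comparison asks, per the series design, how expression differs when ACSL5, an acyl-CoA synthetase that activates long-chain fatty acids, is reduced in cells of pancreatic ductal adenocarcinoma.

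Complexes I to IV pass electrons from NADH and succinate to oxygen, complexes I, III and IV pump protons across the inner mitochondrial membrane, and the ATP synthase lets the protons return to make ATP. Complex I oxidises NADH, complex III passes electrons from ubiquinol to cytochrome c, and complex IV reduces oxygen. These 3 pumps and the ATP synthase also hold subunits encoded by mitochondrial DNA, so their assembly draws on both genomes, and fatty acids activated by acyl-CoA synthetases are among the fuels whose oxidation feeds the chain.

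The promoters of 4 members are shown first because these were the members whose call, described below, held in all 19 alternative settings. Each window runs from 250 bases before to 50 bases after the RefSeq start on build GRCm38.p6, and it is written 5′ to 3′ on the strand of the gene. Capitals mark matches, on either strand, to short cores of the factors NRF1 (GCATGCG), ETS family members such as GABP (CCGGAAG) and YY1 (AAGATGG). These factors are known regulators of respiratory chain genes. The windows are chr10:80249199-80249498 (plus strand) for Ndufs7, chr19:44555393-44555692 (minus strand) for Ndufb8, chr15:82354242-82354541 (minus strand) for Ndufa6 and chr17:31519865-31520164 (plus strand) for Ndufv3.
Ndufs7: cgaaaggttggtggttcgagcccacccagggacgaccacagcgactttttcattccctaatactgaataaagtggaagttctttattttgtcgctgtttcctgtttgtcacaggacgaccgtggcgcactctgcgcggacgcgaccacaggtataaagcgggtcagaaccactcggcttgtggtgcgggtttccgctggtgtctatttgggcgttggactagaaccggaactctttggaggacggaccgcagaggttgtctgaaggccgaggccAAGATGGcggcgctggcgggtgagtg
Ndufb8: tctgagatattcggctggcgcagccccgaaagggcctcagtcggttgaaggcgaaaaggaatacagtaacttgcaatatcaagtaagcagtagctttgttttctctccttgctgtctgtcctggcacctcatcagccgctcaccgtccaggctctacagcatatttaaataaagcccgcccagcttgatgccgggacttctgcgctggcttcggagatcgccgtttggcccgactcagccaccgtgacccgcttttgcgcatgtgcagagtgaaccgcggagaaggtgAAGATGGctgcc
Ndufa6: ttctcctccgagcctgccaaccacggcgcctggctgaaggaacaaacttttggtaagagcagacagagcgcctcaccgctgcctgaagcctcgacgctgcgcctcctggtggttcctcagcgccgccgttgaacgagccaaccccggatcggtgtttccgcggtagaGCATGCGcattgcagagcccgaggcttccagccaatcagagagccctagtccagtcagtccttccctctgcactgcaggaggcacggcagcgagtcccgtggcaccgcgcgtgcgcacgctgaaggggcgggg
Ndufv3: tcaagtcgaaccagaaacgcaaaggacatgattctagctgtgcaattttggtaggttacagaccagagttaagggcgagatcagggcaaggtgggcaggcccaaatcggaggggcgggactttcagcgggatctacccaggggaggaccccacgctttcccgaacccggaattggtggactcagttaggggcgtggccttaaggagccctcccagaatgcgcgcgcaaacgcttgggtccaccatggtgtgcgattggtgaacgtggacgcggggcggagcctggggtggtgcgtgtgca
Ndufs7 and Ndufb8 hold the YY1 core close to the 3′ end of the window, Ndufa6 holds the NRF1 core upstream of the start, and Ndufv3 holds none of the 3 cores in these letters. Among 64 tested members with a promoter in the table, 14.1% held the NRF1 core, 21.9% the ETS core and 15.6% the YY1 core, beside 3.64%, 9.12% and 6.48% of all 27025 promoters. At least 1 core was present in 45.3% of the members and in 17.7% of all promoters. Only the first listed promoter of each gene was used, and the 27025 were not restricted to genes tested here, as the members were. The ETS and YY1 cores share the letters AAG and could overlap. These counts describe letters in a window and say nothing about binding.

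Library totals lay between 21794244 and 29996194 expected counts, which are estimated reads per gene. The members took 1.44% of the counts in WT replicate 1 and between 0.685% and 0.777% in each of the other 5 libraries. Ribosomal protein genes, which also have short transcripts, took 9.82% of WT replicate 1 and 3.72% to 4.40% of the others. Levels are given in the order of replicates 1, 2 and 3, and where a pair of WT values stands alone it is that of replicates 2 and 3. Acsl5 itself was at 342, 265.2 and 270.2 CPM (counts scaled by TMM to a library of fixed size) in WT and at 49.8, 55.6 and 57.2 CPM in the knockdown libraries, so every library matched its label. Of 9 epithelial and pancreatic tumour markers, 8 were at 1 TPM or more in every library, with sums of 8707 to 9369 TPM in WT and 8106 to 8882 TPM in knockdown. Sums were at most 0.1 TPM for endothelial and islet markers, and lay between 42.3 and 101.9 TPM for fibroblast, 3.6 and 8.6 TPM for immune, 7.2 and 15.2 TPM for acinar and 0.2 and 1.8 TPM for muscle markers. Both the acinar sums (12.7 to 15.2 TPM in knockdown and 7.2 to 10.3 TPM in WT) and the immune sums (7.2 to 8.6 TPM and 3.6 to 6.5 TPM) were higher in each knockdown library than in any WT library. Nearly all of each sum was 1 gene, Cela1 and Cd68, while the acinar markers Cpa1, Amy2a5 and Ptf1a and the immune markers Ptprc, Adgre1, Lyz2 and Cd3e were at or near 0. The acinar marker Bhlha15 was at 0.26, 0.90 and 0.82 TPM in WT and at 0.31, 0.48 and 0.25 TPM in knockdown. Without WT replicate 1, when 34.3% of all genes were called, 1 of 2 tested acinar markers was lower and 1 higher. The same fit called 1 of 8 tested epithelial and pancreatic tumour markers lower and 4 higher, and 2 of 4 tested fibroblast markers lower and 1 higher. Of the immune and muscle markers 1 each was tested, and only the muscle marker was called (higher). The part of these markers in the results was not tested. In bulk RNA, fewer cells with a transcript and less of it per cell cannot be told apart.

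Reads were too few to test 12 members, none of which exceeded 3 counts in any library and 9 of which were at 0 throughout. They include the isoforms known from other tissues, namely Cox4i2 of lung, Cox6a2 and Cox8b of heart and skeletal muscle, and Cox6b2, Cox7b2 and Cox8c of testis. Ndufa4l2, Ndufa11b, Ndufb11b, Ndufs6b, Cox6c2 and a second row named Atp5o complete the group. The remaining 76 members were tested, 39 of complex I, 8 of complex III, 12 of complex IV and 17 of the ATP synthase. Their lengths in the deposited table ran from 315 bases (Ndufc1) to 4660 bases (Atp5g1), with a median of 713 bases beside 2709 bases for all genes tested.

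Over all 6 libraries, no member differed between the groups at an adjusted p below 0.05. By the quasi-likelihood test of edgeR, 0 of 76 members were called lower and 0 higher, where 0.0% of 14679 genes were called. At an unadjusted p below 0.05 there were 3 members, beside 16.0% of all genes: Ndufv3 and Cox6b1 with negative values and Uqcrq with a positive one. DESeq2 called 1 member (Uqcrq, higher) and 7.68% of genes, limma-voom 0 members and 0.0613% of genes, and limma on log2(TPM + 1) 0 members and 0.0% of genes. The members nevertheless leaned one way, with a negative log2 fold change (knockdown minus WT) in 71 of 76 and a median of -0.69, beside -0.02 for all genes. In log2(TPM + 1) the lean was smaller, with negative values in 57 and positive ones in 19, and a median of -0.19 beside 0.26 for all genes. The median was -0.68 in complex I, -0.35 in complex III, -0.90 in complex IV and -0.74 in the ATP synthase.

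This lean came with a single library. WT replicate 1 held the highest level of the 6 libraries in 70 of 76 members (92.1%, against 38.4% of all genes), and in 66 it was at least 2-fold above the mean of WT replicates 2 and 3. Atp5h, which encodes subunit d of the stalk, shows the pattern, with 959, 207 and 226 CPM in WT and 205, 225 and 236 CPM in knockdown. The ratio of WT replicate 1 to the mean of the other WT libraries had a median of 2.94 in complex I, 2.33 in complex III, 3.45 in complex IV and 3.31 in the ATP synthase, and ranged from 0.942 (Atp5g2) to 4.68 (Atp5mpl). A few long transcripts and 3 short ones did not share it. Ndufs1 (2590 bases) stood at 129, 129 and 125 CPM in WT and Uqcrc2 (1896 bases) at 133, 118 and 124 CPM, while Atp5g2 (441 bases) stood at 17.4, 17.6 and 19.4 CPM. Uqcr11 and Uqcrq were likewise within the range of 0.964 to 1.22 of the other WT libraries.

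**Figure D1:**
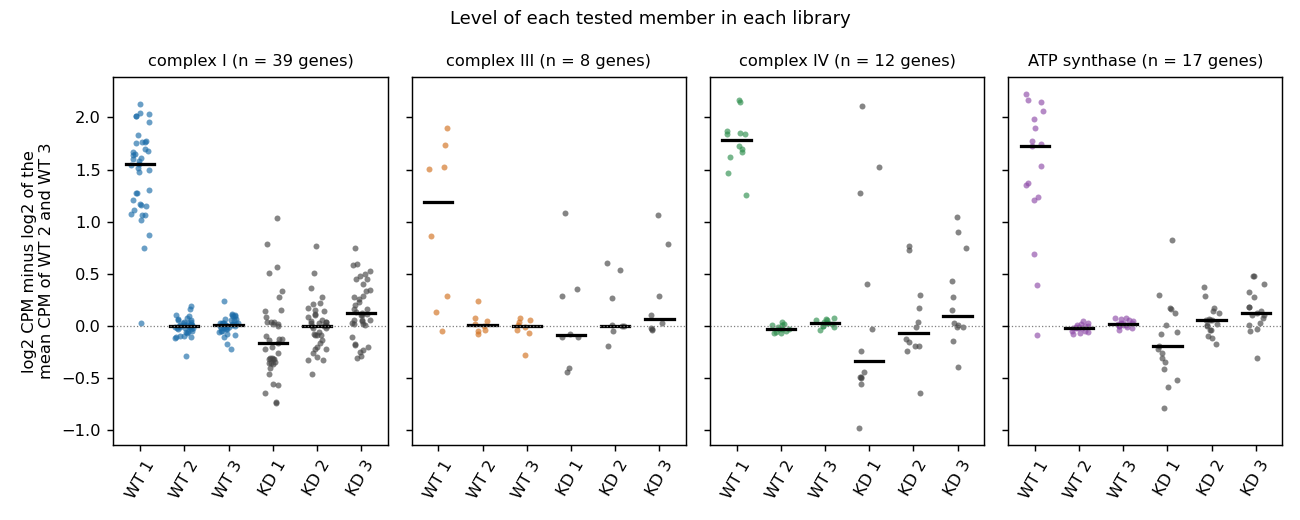
Level of each of the 76 tested members in each library, as log2 CPM minus the log2 of the mean CPM of WT replicates 2 and 3, by complex. Each point is a gene and each black line the median of the complex; WT replicate 1 lies above the other libraries in most genes of all 4 complexes.

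Across members, the excess in WT replicate 1 was larger for shorter transcripts (Spearman -0.42, Pearson -0.34 on log2 length, over 76 genes). The genes share the same libraries, so they are not independent. The median log2 difference from WT replicates 2 and 3 was 1.71 for the 52 members below 1000 bases and 1.22 for the 24 others, beside -0.02 over all genes. The 6-library log2 fold change had a median of -0.81 in the shorter and -0.53 in the longer members. With each library's trend on gene length removed, the 6-library median moved to -0.17 (all genes -0.01), and 1 member was called lower and 2 higher, while 6.25% of all genes were called. Length moved with the lean, and beyond this its part in the result was not tested. Knockdown replicate 1, which stayed in the fit without WT replicate 1, also had a length trend. Its log2 difference from knockdown replicates 2 and 3 was lower for shorter members (Spearman 0.46, Pearson 0.34). Length against the log2 fold change of that fit gave Spearman 0.08 and Pearson 0.0. With the length trend removed, its calls moved from 4 lower and 8 higher to 10 and 11, with no share of all genes given.

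**Figure D2:**
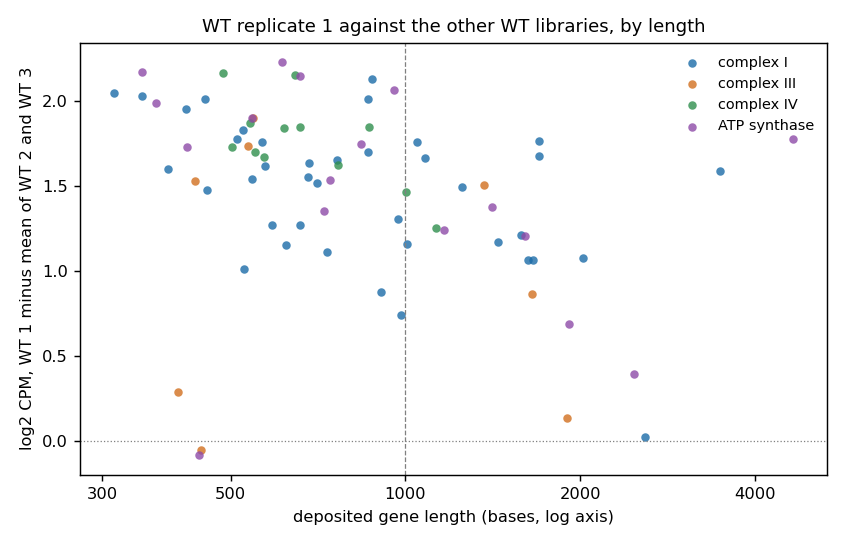
Log2 CPM of WT replicate 1 minus the mean of WT replicates 2 and 3 against the deposited length in bases (log axis) for the 76 tested members, coloured by complex, with a dashed line at 1000 bases. Most points lie between 1 and 2, and the values near 0 belong to Ndufs1, Uqcrc2, Uqcrq, Uqcr11 and Atp5g2.

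Leaving WT replicate 1 out, the lean was gone, and members were called in both directions. Of 76 members, 4 were lower and 8 higher in knockdown cells, 15.8% in all, while 34.3% of 15152 genes were called (18.0% lower and 16.3% higher). The median log2 fold change was -0.02, beside -0.01 for all genes, and 69 of the 76 lay within 0.5 of 0. By complex, 4 were lower and 4 higher in complex I (20.5% called), 0 and 2 of 8 in complex III, 0 and 0 in complex IV, and 0 and 2 in the ATP synthase (11.8%), each beside the 34.3% of all genes. All 3 knockdown libraries lay on one side of WT replicates 2 and 3 in 31 members, 13 below and 18 above, which is 40.8% beside 59.8% of all genes. The rule that named this comparison was written with the behaviour of WT replicate 1 known.

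**Figure D3:**
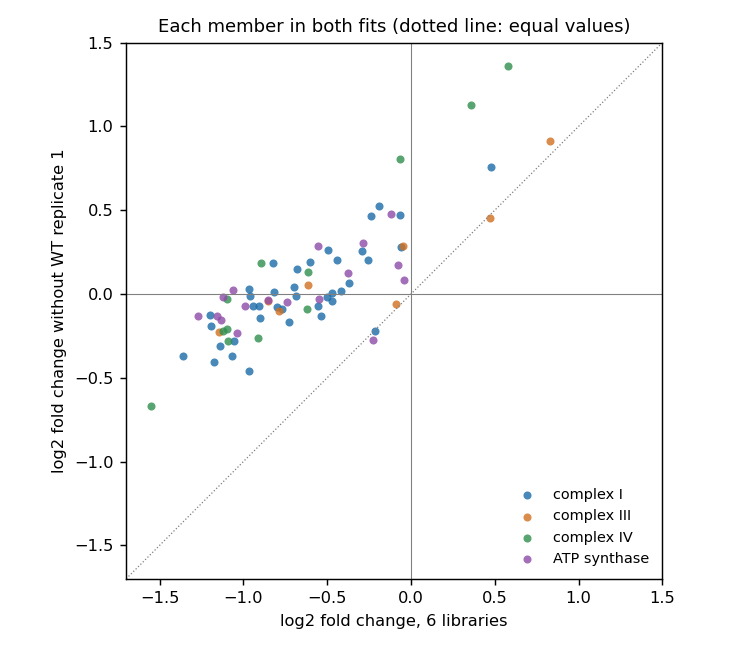
Log2 fold change (knockdown minus WT) of each tested member over 6 libraries (x axis) and over the 5 libraries without WT replicate 1 (y axis), coloured by complex. The points lie above the dotted line of equal values in nearly all members, since 71 are negative over 6 libraries and 42 over 5.

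In complex I the 4 lower members were Ndufv3, Ndufb5, Ndufv2 and Ndufs1, of which Ndufv3, Ndufv2 and Ndufs1 belong to the arm that takes electrons from NADH. Ndufv3 (chr17:31520115-31531331, plus strand, GRCm38) encodes a small accessory subunit of that arm, and it stood at 163, 68.9 and 71.6 CPM in WT and 47.5, 50.9 and 56.7 CPM in knockdown. Every knockdown library lay below every WT library. The log2 fold change was -0.46 (SE 0.08) without WT replicate 1, with an adjusted p of 0.00153 by edgeR, and -0.97 (adjusted p = 0.281) with it. Ndufv2 (chr17:66078638-66101559, minus strand), an iron-sulfur subunit beside the NADH site, was at 86.2 and 83.7 CPM in WT replicates 2 and 3 and at 66.1, 67.4 and 74.6 CPM in knockdown. Its log2 fold change was -0.31 (SE 0.06, adjusted p = 0.00400 by edgeR).

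Ndufs1 (chr1:63143596-63176833, minus strand) encodes the largest subunit of the complex, which carries several iron-sulfur clusters. It stood at 129, 129 and 125 CPM in WT and 108, 115 and 106 CPM in knockdown, a separation that did not depend on WT replicate 1. Its log2 fold change was -0.22 (SE 0.05, adjusted p = 0.00910 by edgeR) over 5 libraries and -0.21 (adjusted p = 0.416) over 6. Ndufb5 (chr3:32736990-32751566, plus strand), an accessory subunit of the membrane arm, was at 36.9 and 36.4 CPM in WT replicates 2 and 3 and at 24.6, 29.1 and 29.99 CPM in knockdown (log2 fold change -0.41, SE 0.09, adjusted p = 0.00663 by edgeR). The adjusted p passed the threshold in neither Ndufb5 (0.0577 and 0.0566) nor Ndufs1 (0.0967 and 0.0514) once WT replicate 2 or 3 was also left out. With the GC trend of each library removed, the adjusted p in edgeR was 0.0753 for Ndufs1 and 0.0849 for Ndufv2. Ndufb5 overlaps Mrpl47 and Ndufs1 overlaps Eef1b2 on the opposite strand, and whether counting used strand is not stated.

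The catalytic partners of these subunits that are described here gave log2 fold changes close to 0. Ndufv1, which binds NADH and its flavin, was at 113 and 111 CPM in WT replicates 2 and 3 and at 103, 114 and 114 CPM in knockdown (adjusted p = 0.655 by edgeR), and the knockdown libraries overlapped those WT libraries. Ndufs3 (adjusted p = 0.903) and Ndufs8 (0.840), further core subunits, likewise missed the threshold in edgeR.

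Ndufs7, Ndufa6, Ndufb8 and Ndufa8 were the complex I members that rose. Ndufs7 (chr10:80249121-80256794, plus strand) encodes the subunit with the iron-sulfur cluster nearest to ubiquinone, and it stood at 23.9, 16.3 and 12.2 CPM in WT and 24.6, 24.3 and 23.9 CPM in knockdown. It is 1 of 2 members, with Uqcrq, whose 3 knockdown libraries were above all 3 WT libraries, although the margin over WT replicate 1 was small. The log2 fold change was 0.76 (SE 0.12, adjusted p = 8.37e-04 by edgeR), and 0.48 with the trends on length and GC removed together (adjusted p = 0.00874), a setting that called 33.7% of all genes.

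Ndufb8 (chr19:44548572-44555440, minus strand), an accessory subunit of the membrane arm, was at 169, 60.02 and 55.0 CPM in WT and at 72.4, 81.6 and 86.1 CPM in knockdown. Ndufa6 (chr15:82350140-82354322, minus strand), an accessory subunit that holds the mitochondrial acyl carrier protein, was at 75.2, 30.9 and 31.5 CPM in WT and at 44.3, 40.0 and 46.9 CPM in knockdown. In both genes the knockdown libraries lay above WT replicates 2 and 3 and below WT replicate 1. The log2 fold changes were 0.46 (SE 0.08, adjusted p = 0.00320) and 0.47 (SE 0.08, adjusted p = 0.00120) by edgeR without WT replicate 1. Ndufa8, which faces the intermembrane space and is named here because it was called and not by the naming rule, stood at 55.0 and 52.6 CPM in WT replicates 2 and 3 and at 59.7, 60.5 and 65.7 CPM in knockdown (log2 fold change 0.19, SE 0.06, adjusted p = 0.0433 by edgeR). Ndufa8 lost its call when any library other than knockdown replicate 1 was also left out (adjusted p from 0.0574 to 0.280), and also with the GC trend removed (adjusted p = 0.0910 by edgeR).

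The acyl carrier protein itself, Ndufab1, is the longest complex I member in the table (3479 bases). It stood at 27.7 and 27.8 CPM in WT replicates 2 and 3 and at 56.8, 29.4 and 35.2 CPM in knockdown, so that knockdown replicate 1 stood 1.76-fold above the mean of the other knockdown libraries, and its adjusted p was 0.354 by edgeR. Ndufc1, the shortest tested member, was at 8.64 and 10.03 CPM in WT replicates 2 and 3 and at 9.57, 9.62 and 13.02 CPM in knockdown (adjusted p = 0.411). Ndufa4, named for complex I and since assigned to complex IV, was at 116 and 118 CPM in WT and 107, 127 and 128 CPM in knockdown (adjusted p = 0.833). Ndufb4c is annotated as a processed pseudogene on chromosome 15. Its annotated span (chr15:73809507-73809896) is as long as its deposited length of 390 bases, so the annotation leaves no room for an intron. Its TPM of 222 to 246 in WT replicates 2 and 3 was above the 29.7 and 30.5 TPM of Ndufb4. Reads may be split between these copies, so the level of either is uncertain.

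**Figure D4:**
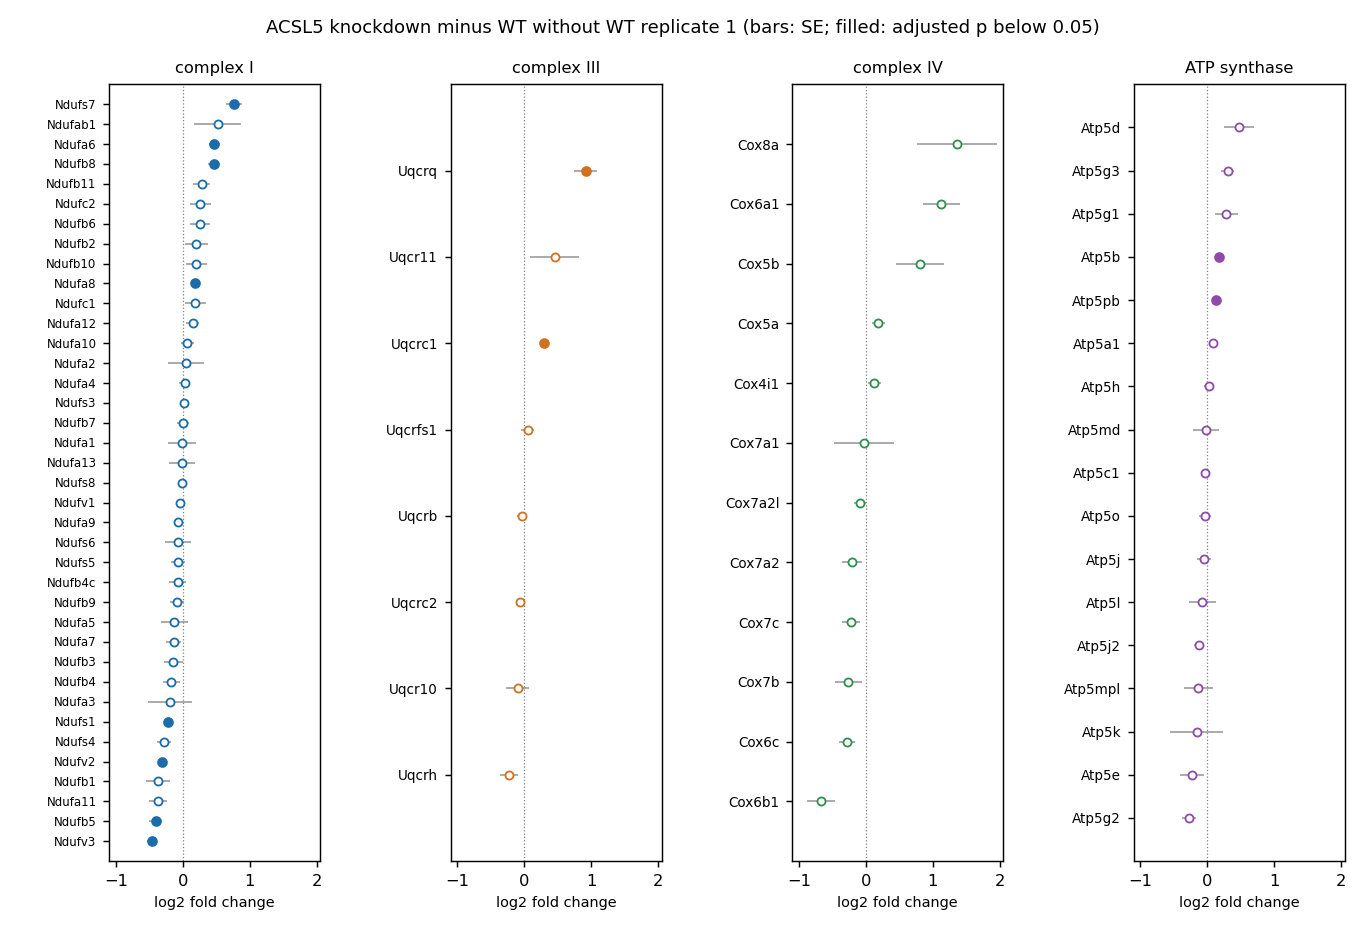
Log2 fold change (knockdown minus WT replicates 2 and 3) with its SE for the tested members reported here, ordered within complex I, complex III, complex IV and the ATP synthase. Filled points have an adjusted p below 0.05 in edgeR. Cox8a, Cox6a1 and Cox5b have the highest values in complex IV, with wide bars and open points.

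In complex III, Uqcrq and Uqcrc1 were higher and no member was lower. Uqcrq (chr11:53427922-53430831, minus strand), a small subunit next to cytochrome b and the shortest of the complex (405 bases), was at 34.0, 29.3 and 26.6 CPM in WT and at 59.2, 42.4 and 58.2 CPM in knockdown. All knockdown libraries lay above all WT libraries. The log2 fold change was 0.91 (SE 0.17, adjusted p = 0.0131) over 5 libraries and 0.83 (SE 0.19, adjusted p = 0.146) over 6 by edgeR. The adjusted p was 0.074, 0.116 and 0.0755 when WT replicate 2, WT replicate 3 or knockdown replicate 1 was also left out, and 0.0709 with the length trend removed.

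Uqcrc1 (chr9:108936633-108949623, plus strand), a core protein on the matrix side, was at 236, 133 and 126 CPM in WT and at 166, 156 and 158 CPM in knockdown. The knockdown values lay between WT replicate 1 and the other WT libraries. Its log2 fold change was 0.29 (SE 0.05, adjusted p = 0.00147 by edgeR), and 0.13 with the GC trend removed (adjusted p = 0.0486). The partner core protein, Uqcrc2, was at 118 and 124 CPM in WT replicates 2 and 3 and at 112, 120.2 and 119 CPM in knockdown (adjusted p = 0.433), and Uqcrfs1, the Rieske iron-sulfur protein, was at 54.9 and 53.9 CPM and at 66.3, 52.4 and 52.9 CPM (adjusted p = 0.715). The groups overlapped in both. Uqcrb, Uqcrh, Uqcr10 and Uqcr11 had adjusted p-values of 0.278 to 0.716 in edgeR.

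No complex IV member was called in the 5-library edgeR fit, although the members with the lowest and the highest values of the 76 both belong to it. Over the same libraries, DESeq2 called Cox6b1 (adjusted p = 0.0107) and Cox6c (0.0439) lower and Cox6a1 (5.55e-04) and Cox8a (0.0422) higher. With the length trend removed, edgeR called 3 of the 12 lower and 1 higher. The share of all genes called in these settings is not given here. Cox8a, the widely expressed isoform of the small subunit VIII, was at 112, 33.2 and 35.7 CPM in WT and at 148, 57.1 and 64.3 CPM in knockdown. All knockdown libraries stood above WT replicates 2 and 3, but knockdown replicate 1 was 2.44-fold above the mean of the other knockdown libraries. The log2 fold change of 1.36 had an SE of 0.59 and an adjusted p of 0.196 by edgeR. With knockdown replicate 1 left out as well, it was 0.82 with an adjusted p of 9.11e-09.

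Cox6a1, the isoform of subunit VIa outside muscle, and Cox5b showed the same high first knockdown library. Cox6a1 was at 51.5 and 51.3 CPM in WT replicates 2 and 3 and at 148, 87.3 and 105.8 CPM in knockdown (log2 fold change 1.13, SE 0.28, adjusted p = 0.0604), and at 0.91 with an adjusted p of 7.66e-05 without knockdown replicate 1, both by edgeR. Cox5b, a zinc-binding subunit on the matrix side that the naming rule does not take, was at 35.4 and 39.2 CPM in WT and at 90.4, 45.8 and 62.5 CPM in knockdown (log2 fold change 0.81, SE 0.36, adjusted p = 0.197). Cox6b1, a subunit on the intermembrane side where monomers meet, was at 347, 92.3 and 101 CPM in WT and at 48.8, 61.9 and 73.5 CPM in knockdown. It was below every WT library in each knockdown library, its log2 fold change being -0.67 (SE 0.21, adjusted p = 0.0867), and -0.52 (adjusted p = 0.00149) without knockdown replicate 1, by edgeR.

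Cox4i1, Cox5a, Cox6c and Cox7c, further subunits of complex IV, did not pass the threshold in the 5-library edgeR fit before any alternative setting. Cox4i1 was at 191 and 190.1 CPM in WT and at 186, 215 and 231 CPM in knockdown (adjusted p = 0.363), and Cox5a at 33.6 and 36.3 CPM and at 46.2, 35.8 and 38.9 CPM (adjusted p = 0.184). Cox6c was at 91.5 and 95.9 CPM and at 66.6, 82.0 and 84.8 CPM (adjusted p = 0.110), and Cox7c at 86.4 and 87.9 CPM and at 64.1, 76.0 and 86.2 CPM (adjusted p = 0.278). The knockdown libraries lay below WT replicates 2 and 3 in Cox6c and Cox7c and overlapped them in Cox4i1. Per length, Cox7a2l, which encodes a factor of supercomplexes, stood at 228 and 235 TPM in WT replicates 2 and 3 and at 202, 234 and 235.1 TPM in knockdown. Cox7a2 stood at 162 and 150.3 TPM and at 123, 148 and 149 TPM, and the muscle isoform Cox7a1 at 6.82 and 6.53 TPM and at 6.19, 6.40 and 8.04 TPM. Their adjusted p-values on counts were 0.484, 0.351 and 0.968 in edgeR.

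The ATP synthase members Atp5b and Atp5pb rose by small amounts. Atp5b (chr10:128083273-128090391, plus strand) encodes the catalytic beta subunit and had the highest TPM of the members in WT replicate 2. It was at 1396, 860 and 871 CPM in WT and at 1064, 941 and 956 CPM in knockdown, and the log2 fold change was 0.17 (SE 0.05, adjusted p = 0.0254 by edgeR). Atp5pb (chr3:105942698-105960099, minus strand), subunit b of the peripheral stalk, was at 642, 274 and 283 CPM in WT and at 303, 306 and 314 CPM in knockdown (0.13, SE 0.05, adjusted p = 0.0488). Both lie between WT replicate 1 and the other WT libraries. Neither passed the threshold once WT replicate 2 or 3 was also left out (adjusted p of 0.188 and 0.154 for Atp5b, 0.340 and 0.173 for Atp5pb). Atp5pb also missed it without knockdown replicate 2 or 3 (0.0858 and 0.0899), and in the deposited TPM their adjusted p was 0.867 and 0.720 by limma.

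The other core subunits did not pass the threshold. Atp5a1, the alpha subunit, was at 660.1 and 658 CPM in WT replicates 2 and 3 and at 734, 683 and 706 CPM in knockdown (adjusted p = 0.151), and Atp5c1, the rotating gamma subunit, at 205.0 and 205.4 CPM and at 196, 208 and 207 CPM (adjusted p = 0.703). Atp5a1 was above WT replicates 2 and 3 in all knockdown libraries, and Atp5c1 overlapped them. The genes Atp5g1, Atp5g2 and Atp5g3 encode one mature subunit c of the membrane ring with different leader sequences. Per length, Atp5g1 was at 435 and 415 TPM in WT replicates 2 and 3 and at 457, 559 and 551 TPM in knockdown, Atp5g3 at 415 and 386 TPM and at 492, 505 and 543 TPM, and Atp5g2 at 43.9 and 48.9 TPM and at 30.8, 43.5 and 33.0 TPM. On counts their adjusted p-values were 0.296, 0.0610 and 0.0685 in edgeR. Atp5md, the shortest tested ATP synthase member (352 bases), was at 41.2 and 42.4 CPM and at 33.6, 40.6 and 50.6 CPM (adjusted p = 0.955).

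**Figure D5:**
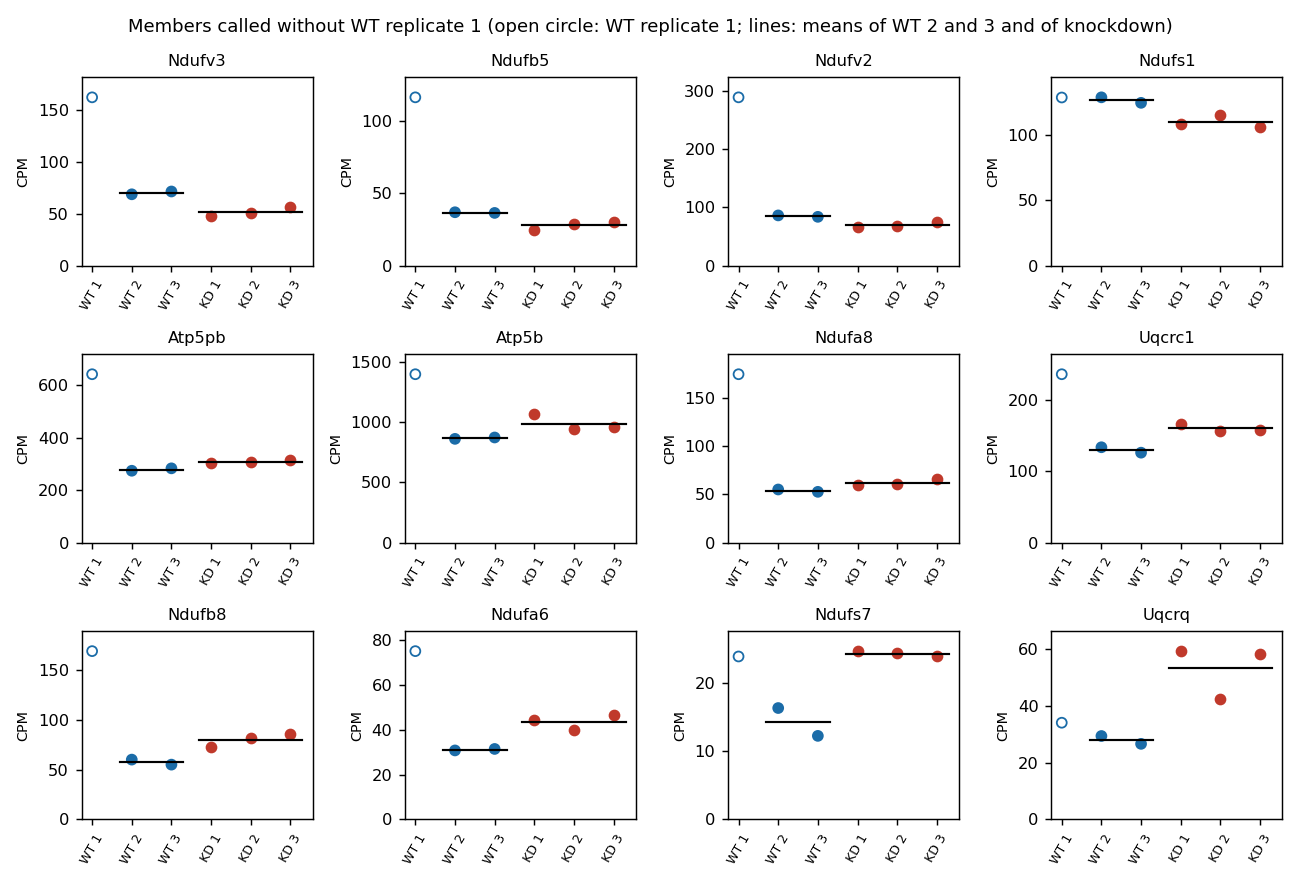
CPM in each library for the 12 members called without WT replicate 1, ordered by log2 fold change. The open circle is WT replicate 1 (not used for the call), filled points are the other libraries, and lines are the means of WT replicates 2 and 3 and of knockdown; WT replicate 1 is the highest point in 9 panels.

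Which members were called depended on the libraries. Leaving out WT replicate 2 or WT replicate 3 as well left the same 6 calls in each case (Ndufv3, Ndufv2, Ndufs7, Ndufa6, Ndufb8 and Uqcrc1). With the trends on length and GC removed together, 7 of the 12 were called again, and Atp5b, Ndufa8, Ndufs1, Uqcrc1 and Uqcrq were not (adjusted p from 0.0578 to 0.0996 in edgeR). In log2(TPM + 1), limma gave adjusted p-values of 0.0893 to 0.867 for Ndufb5, Ndufv2, Ndufs1, Atp5b and Atp5pb. Knockdown replicate 1 was the lowest knockdown library in 58 of 76 members (76.3%, beside 34.4% of all genes), and it was more than 1.5-fold above the mean of the other 2 in Cox8a, Ndufab1, Cox5b and Cox6a1. Without it as well, 7 members were lower and 19 higher (34.2%), beside 41.4% of all genes, and 11 of these were among the 12. In complex IV that fit called Cox6b1 and Cox6c lower and Cox8a, Cox6a1 and Cox4i1 higher. Without knockdown replicate 3 in place of replicate 1, the counts were 9 lower and 7 higher. The share of all genes called is not given here for that fit, nor for the fits without WT replicate 2 or 3. Their counts therefore cannot be read as particular to the members.

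Summed over the members of a complex, CPM in knockdown was within 1.10-fold of WT replicates 2 and 3. For complex IV the ratio was 1.09 in CPM, 1.15 in the deposited TPM and 1.11 as percent of counts. The complex I sum was 2051 ± 5.59 CPM (SD, n = 2) in WT replicates 2 and 3 and 2059 ± 136 CPM (SD, n = 3) in knockdown, which overlap. The sum of complex III was 580 ± 0.636 CPM and 627 ± 27.7 CPM, that of complex IV 886 ± 20.7 CPM and 970 ± 58.7 CPM, and that of the ATP synthase 3204 ± 38.2 CPM and 3466 ± 80.7 CPM, with the same n. WT replicate 1 stood at 5370, 1325, 2834 and 7616 CPM in the same order. The sums of complex III, complex IV and the ATP synthase in each knockdown library were above both of these WT libraries and below WT replicate 1.

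Genes that work with the members were also mixed without WT replicate 1, and none of these lists had a call over 6 libraries. In complex II and the mobile carriers, 2 of 6 tested genes fell (Sdha and Sdhb) and 1 rose (Cyc1, cytochrome c1 of complex III). Sdhb, the iron-sulfur subunit of succinate dehydrogenase, was at 64.0 and 66.9 CPM in WT replicates 2 and 3 and at 50.8, 58.4 and 57.6 CPM in knockdown (adjusted p = 0.0206 by edgeR). Cyc1 was at 120 and 116 CPM and at 145, 138 and 148 CPM (adjusted p = 0.00260). In the same fit, which called 34.3% of all genes, 1 of 18 complex I assembly factors fell (Ndufaf1) and 3 rose (Ndufaf8, Dmac1 and Ecsit). Among those of complex III, 1 of 6 fell (Ttc19) and 1 rose (Uqcc1). Among those of the ATP synthase, 1 of 5 fell (Atpaf1) and 2 rose (Fmc1 and Atpaf2). Ndufaf8 was at 5.84, 2.66 and 2.01 CPM in WT and at 12.93, 7.04 and 8.89 CPM in knockdown (adjusted p = 0.00201 by edgeR without WT replicate 1).

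Of 29 complex IV assembly factors, 3 were lower and 6 higher, where 34.3% of all genes were called. Coa6 and Sco2, which serve copper delivery to cytochrome c oxidase, were at 2.08 and 1.95 CPM and at 2.75 and 2.56 CPM in WT replicates 2 and 3, and at 8.14, 5.27 and 5.68 CPM and at 10.96, 5.57 and 8.52 CPM in knockdown (adjusted p of 3.81e-04 and 0.00420 by edgeR). Pet117 had 22, 24 and 34 counts in WT and 0 in each knockdown library, at least 9.34-fold lower against a floor of 3 counts per library. It overlaps Kat14 on the same strand, so expected counts may be split between them. Fastk was at 52.6 and 49.7 CPM in WT replicates 2 and 3 and at 41.1, 38.7 and 43.3 CPM in knockdown (adjusted p = 0.00393).

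Of 17 regulators of respiratory gene transcription, 1 fell (Tefm) and 3 rose (Polrmt, Twnk and Pprc1). Polrmt, the RNA polymerase of mitochondria, was at 20.7, 19.2 and 20.9 CPM in WT and at 36.6, 32.3 and 33.8 CPM in knockdown, all above WT (adjusted p = 1.10e-04 without WT replicate 1 and 0.104 with it, by edgeR). Its log2 fold change without WT replicate 1 was 0.75, and 0.39 with the GC trend removed (adjusted p = 0.00503 by edgeR). Nrf1, Gabpa and Yy1, whose cores are marked in the promoters above, had adjusted p-values of 0.234, 0.935 and 0.634. The subunits encoded by mitochondrial DNA fell in 7 of 13 and rose in 0, where 34.3% of all genes were called (18.0% lower). Their median log2 fold change was -0.55, beside the -0.02 of the nuclear members, and it was -0.36 with the GC trend removed. Among them, mt-Nd6, which the naming rule does not take, was at 331 and 322 CPM in WT replicates 2 and 3. In knockdown it was at 219, 203 and 244 CPM (adjusted p = 6.74e-04 by edgeR). For mt-Cytb, which complex III holds beside Uqcrq, the values were 4797 and 4853 CPM and 3759, 3708 and 3859 CPM (adjusted p = 1.03e-04).

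A 7-base site in the 3′ UTR (GAACTAC or AACTACA) had been chosen earlier from these same fold changes, so its counts are only a description. It was found in 1 of 73 members with an annotated 3′ UTR (1.37%), beside 9.8% of 11852 tested genes with one. These shares were not matched for UTR length. The tested members have shorter transcripts than all genes tested (median 713 against 2709 bases), and the part of length in the shares was not tested. That gene is Ndufs4, at chr13:114288637-114288665 on the minus strand of GRCm38, shown with the site in capitals because it is the only such site among the members.
Ndufs4: tgtgacctttaAACTACAggtacacttgg
Ndufs4, an accessory subunit of complex I, was at 104, 31.2 and 33.8 CPM in WT and at 23.5, 28.9 and 28.7 CPM in knockdown, below every WT library in each (adjusted p = 0.0611 by edgeR without WT replicate 1).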

How the data were processed

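RNA of 3 WT and 3 ACSL5 knockdown libraries was extracted with TRIzol and sequenced on an Illumina platform, per the labels' protocols. Read trimming, alignment and quantification are recorded only as names (fastp, HISAT2, StringTie, DESeq2, no versions) in the submitters' processing notes. The builds listed there, hg38 and GRCh38, are human, while the table carries mouse Ensembl identifiers. Quantifier and strandedness are not stated. The authors deposited expected counts per gene and library, of which 10.1% to 13.0% per library were not whole numbers, and a second table of TPM, in which they scaled each library to a sum of 999999 to 1000001. Of the 76 tested members, 29 had a value that was not whole in some library (5 of the 12 called), and 21 overlap another tested gene in GENCODE M21 (3 of the 12).

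Expected counts were rounded to whole numbers, filtered with filterByExpr and scaled by TMM, and levels are CPM over all 6 libraries. Groups were compared with the two-sided quasi-likelihood test of edgeR 4.0.16 in R 4.3.3, across all genes, with Benjamini-Hochberg adjustment and a threshold of 0.05. Log2 fold changes are knockdown minus WT. Alternatives were other scalings and filters, DESeq2 1.42.0, limma-voom and limma 3.58.1 on log2(TPM + 1) and log2(TPM + 0.1), quality weights per library, trends on length or GC content removed by lowess (span 0.3), a replicate block, a threshold of 0.01, and leaving out each library. Removing both trends together, and reading the counts without knockdown replicate 1 beside the others, were added after seeing the data. The members and lists were chosen with earlier results of these data known.

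Genes are named by this rule: in each complex, the 3 lowest and 3 highest called members with a mean of at least 5 CPM, core subunits, members with tissue isoforms, the shortest and longest member, and up to 2 called genes at each end of each list. Other genes named were chosen after their values were seen. A member that the rule takes entered every count and is not reported here by name. The test was tried on simulated counts with known changes. Positions are from GENCODE M21 (GRCm38), promoters from RefSeq (GRCm38.p6).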

Additional observations from a re-analysis of the deposited data

How the results depend on the processing

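Over 6 libraries, where no member was called, the count was 6 lower and 13 higher with quality weights per library, in which WT replicate 1 had a weight of 0.0312. It was 1 lower and 2 higher with the length trend removed, 1 lower with the length and GC trends removed together, and 1 higher in DESeq2. Leaving out each library gave 0 to 4 lower and 0 to 8 higher, the highest of each without WT replicate 1. The median log2 fold change was 0.009 with quality weights and ran from -0.956 to -0.024 when each library was left out. For the 5 libraries without WT replicate 1 the counts were 4 lower and 8 higher. They were 11 and 13 with no filter, 7 and 11 in DESeq2, and 7 and 16 with quality weights. With the length trend removed they were 10 and 11, and with both trends removed 11 and 10, where 33.7% of all genes were called. At a threshold of 0.01 there were 4 higher, with the lower count unchanged. Where no share of all genes stands beside a count in this section, that count cannot be read as particular to the members. Leaving out each library gave 2 to 9 lower and 4 to 19 higher, the lowest of each without WT replicate 2 or 3, fits that leave 1 WT library and take its spread from the knockdown libraries. The median of the 5 libraries stayed between -0.068 and 0.053 under the alternatives run.

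With a replicate block, 0 members were called over 6 libraries, and over 5 libraries 7 were lower and 18 higher (10 and 18 with the length trend removed too), where knockdown replicate 1 has no partner. Libraries of the same number had correlations of -0.115, 0.020 and -0.142 between their deviations from the group means. The WT mean includes WT replicate 1, which stood apart. WT replicates 2 and 3 had nearly equal correlations with knockdown replicate 2 (0.020 and 0.023) and with knockdown replicate 3 (-0.149 and -0.142). The check therefore cannot tell a partner from another library, and whether the numbers pair the libraries was not tested. The calls of Ndufv3, Ndufs7, Ndufa6 and Ndufb8 held in all 19 settings of the 5-library fit. Of 34 members taken by the naming rule and tested, 20 had the opposite sign in at least 1 of 20 settings over 6 libraries and 10 in at least 1 of 19 settings over 5. The causes were not tested. With 2 WT libraries in the second fit, the spread within WT is known only from a single difference, and Cox7a1, at 0.462 to 2.95 CPM, rests on the fewest reads of the tested members. Counts that were split between overlapping genes or copies limit the values of single members, and no read-level check of this was possible from the tables.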

Other observations

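The deposited TPM and the expected counts gave different pictures for a few members. Atp5b was at 1638, 1114 and 1184 TPM in WT replicates 1, 2 and 3 and at 2999, 848 and 843 TPM in knockdown replicates 1, 2 and 3, while its CPM in the same knockdown libraries was 1064, 941 and 956. The log2 fold change without WT replicate 1 differed by at least 0.5 between the count fit and log2(TPM + 1) in 3 members. Cox5b was at 0.81 on counts and 0.09 on TPM (adjusted p = 0.633 by limma), Cox7b at -0.26 and 0.37 (adjusted p = 0.242), and Ndufa10 at 0.07 (adjusted p = 0.628 by edgeR) and -0.47 (adjusted p = 0.0345 by limma). Ndufa10, an accessory subunit of complex I, was at 89.4 and 90.5 CPM in WT replicates 2 and 3 and at 109, 84.8 and 92.7 CPM in knockdown, but at 148 and 129 TPM in WT and 90.6, 108 and 100.5 TPM in knockdown. The tables give no transcript-level values, and the reason for these differences was not tested.

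In 2 of the 76 members (2.63%, Ndufs7 and Uqcrq) all knockdown libraries were above all 3 WT libraries, beside 18.7% of all genes tested, and in 13 (17.1%) they were all below, beside 15.6% of all genes. The 13 were Ndufa11, Ndufb1, Ndufb5, Ndufs1, Ndufs4, Ndufv2, Ndufv3, Cox6b1, Cox6c, Cox7c, Atp5e, Atp5g2 and Atp5j2. Of these, 4 were called without WT replicate 1, and Ndufs1 and Atp5g2 were not raised in WT replicate 1.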
